A study of Mus musculus with 2 samples.

Results

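The loci of Runx1, Runx3, Cbfa2t3 and Tle3 held 30 of the 5136 Tle3 peaks mapped in mouse bone marrow progenitors: 12 at Runx1, 4 at Runx3, 7 at Cbfa2t3 and 7 at Tle3. A peak is a region where an antibody against Tle3 pulled down more DNA than the local background, and it was counted at a locus when its midpoint fell inside a fixed window of the mouse build mm9. The windows were chr16:92550000-92880000 for Runx1, chr4:134620000-134790000 for Runx3, chr8:125100000-125280000 for Cbfa2t3 and chr9:61170000-61320000 for Tle3. The loci were chosen by earlier results of this same peak list, so the numbers, spacing, widths and scores below are descriptions and carry no test. Whether each window frames its gene was not checked, because mm9 gene positions were not used here, and no peak was assigned to a promoter, exon or intron.

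The cells were bone marrow cells lacking lineage markers and carrying cKit, the receptor for stem cell factor, taken from wild-type C57BL/6 mice aged 8 to 10 weeks. There was 1 library made with a Tle3 antibody and 1 control library, which the labels describe both as normal IgG and as input. The peak list was taken as a comparison of the Tle3 library with this control. Both libraries came from the same kind of wild-type cells, and the number of animals behind them is not given in the sources used here. Some label fields write T cells where another writes hematopoietic progenitors, and a peak list holds no expression by which the cell type could be checked. With no replicates and no read totals, neither the spread between animals nor the depth behind a peak is known.

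RUNX proteins are DNA-binding factors that pair with the partner CBFB and recognise a short core sequence, TGTGGT. They activate or repress depending on the cofactors they recruit. Groucho/TLE proteins such as Tle3 are corepressors that do not bind DNA themselves and are recruited by a short peptide at the carboxy terminus of RUNX proteins. In blood, Runx1 is needed for stem cells to form in the embryo, and Runx3 acts in T cell and other immune lineages. Cbfa2t3, also called Eto2 or Mtg16, is a corepressor of the ETO family, a family known from the leukemia fusion of RUNX1 with RUNX1T1.

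RUNX core sequences occur at the upstream starts of Runx1 and Runx3 and at the start listed for Runx2. The downstream starts of Runx1 and Runx3 held none. The cores are shown because RUNX proteins, which recruit Tle3, bind such sequences. RefSeq promoter sequences (GRCm38.p6, 250 bases before to 50 after each start) matched 4 of 4 genes, with 2 starts each for Runx1, Runx3 and Cbfa2t3 and 1 for Tle3. The longest run of bases that the upstream starts of Runx1 and Runx3 had in common was 18 bases and held 2 cores, read as ACCACA on the gene's strand. It was found in 4 of 32851 promoter sequences (0.0122%): those of Runx1, Runx2 and Runx3, and that of Gm16225, a noncoding gene beside Runx3 whose sequence covers the same bases on the other strand. The search itself fixed the matches in Runx1 and Runx3, and with them Gm16225, so only the match in Runx2 was not set in advance. The share is therefore no measure of how particular the run is to RUNX genes. The stretches of 30 bases around it follow, 5′ to 3′ on the strand of each gene, with the cores in capitals.
Runx1: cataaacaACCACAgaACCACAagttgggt
Runx2: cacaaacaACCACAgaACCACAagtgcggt
Runx3: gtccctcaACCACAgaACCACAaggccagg

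In GRCm38.p6 these stretches lie at chr16:92826025-92826054 (minus strand) for Runx1, chr17:44814583-44814612 (minus strand) for Runx2 and chr4:135120503-135120532 (plus strand) for Runx3. These positions belong to another build than the peaks, so no distance between a stretch and a peak was taken. Relative to the listed start, the 18-base run lay at 27 to 44 bases downstream in Runx1, at 22 to 39 bases downstream in Runx2 and at 136 to 119 bases upstream in Runx3. Runx1 and Runx2 had 22 consecutive bases in common, including the run, and the Runx2 stretch ended in a further core variant, TGCGGT.

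Both cores of Runx3 lay in the 250 bases before its upstream start, the only member sequence with TGTGGT before the start. It is given here with the cores in capitals (GRCm38.p6, chr4:135120395-135120644, plus strand).
Runx3: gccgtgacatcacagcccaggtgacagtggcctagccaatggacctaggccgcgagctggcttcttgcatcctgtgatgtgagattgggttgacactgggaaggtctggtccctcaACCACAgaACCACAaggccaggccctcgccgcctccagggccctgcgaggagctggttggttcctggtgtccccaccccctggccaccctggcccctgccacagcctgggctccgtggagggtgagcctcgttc

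Among the 7 member promoters, 2 held TGTGGT on either strand, each with 2 copies, against 16.8% of all promoters with at least 1 copy and 1.81% with 2 or more. The variant TGCGGT, found in 6.45% of all promoters, occurred once among the members, at the upstream start of Cbfa2t3. Neither the TCF/LEF core CTTTGA (16.0% of all promoters) nor the HES box CACGCG (9.27%), motifs of other factors that recruit Groucho proteins, was in any member promoter. The single Tle3 promoter held none of the 4 motifs. No matches overlapped, and a match of letters is not a bound site. Of 21 other RUNX and Groucho pathway genes, 14 were in the promoter table, with 23 promoters. Of these 23, 3 held TGTGGT, those of Runx2, of the deacetylase Hdac2 and of the corepressor Ncor1.

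Where a gene had 2 starts, they differed in base composition. The downstream starts of Runx1, Runx3 and Cbfa2t3 had 69.0%, 77.3% and 81.7% G and C, with 35, 45 and 53 CpG dinucleotides. The upstream starts had 45.0%, 63.7% and 63.7%, with 2, 8 and 10. The Tle3 start had 53.7% and 21 CpG, and over all promoters the medians were 52.7% and 7. In each of the 3 genes with a pair of starts, the downstream one was the richer in CpG.

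All 4 windows held more peaks per megabase than their chromosomes. Runx1 had 36.4 peaks per Mb, against 1.80 over chromosome 16 between its first and last peak, a ratio of 20.2. Tle3, the gene of the immunoprecipitated protein itself, had 46.7 against 2.28 on chromosome 9, a ratio of 20.4. Cbfa2t3 had 38.9 against 2.42 on chromosome 8 (16.1), and Runx3 had 23.5 against 2.31 on chromosome 4 (10.2). At the density of its chromosome each window would have held under 1 peak: 0.594 at Runx1, 0.392 at Runx3, 0.435 at Cbfa2t3 and 0.342 at Tle3. The Runx1 window, 0.349% of the span of chromosome 16, held 7.06% of that chromosome's 170 peaks. Among peaks scoring 100 or more the ratios spread further, but on few peaks. They were 37.4 at Runx1 (6 peaks), 48.9 at Tle3 (4 peaks), 11.8 at Runx3 (1 peak) and 8.49 at Cbfa2t3 (1 peak). Widening each window by 50 kb on each side gave 15.5 at Runx1, 8.02 at Runx3, 11.8 at Cbfa2t3 and 12.3 at Tle3. Narrowing by 25 kb on each side gave 21.8, 7.22, 22.3 and 26.3 in the same order. Because the windows were drawn with the peaks known, and differ in length from 150 to 330 kb, the order of the densities is not a ranking of the genes.

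The surroundings of the loci were also richer in peaks than the chromosomes. The 1 Mb on each side held 8 peaks at Runx1 (4.0 per Mb), 24 at Runx3 (12.0 per Mb), 20 at Cbfa2t3 (10.0 per Mb) and 15 at Tle3 (7.5 per Mb). Against these flanks the ratio fell to 9.09 at Runx1, 6.22 at Tle3, 3.89 at Cbfa2t3 and 1.96 at Runx3. The ratio to the flanks was lowest at Runx3 (4 peaks against 24) and highest at Runx1 (12 against 8). It rests on few peaks in windows drawn with those peaks known, so this order is not a ranking of the genes either. The Runx3 count also changed with the window's edges, as given below.

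**Figure D1:**
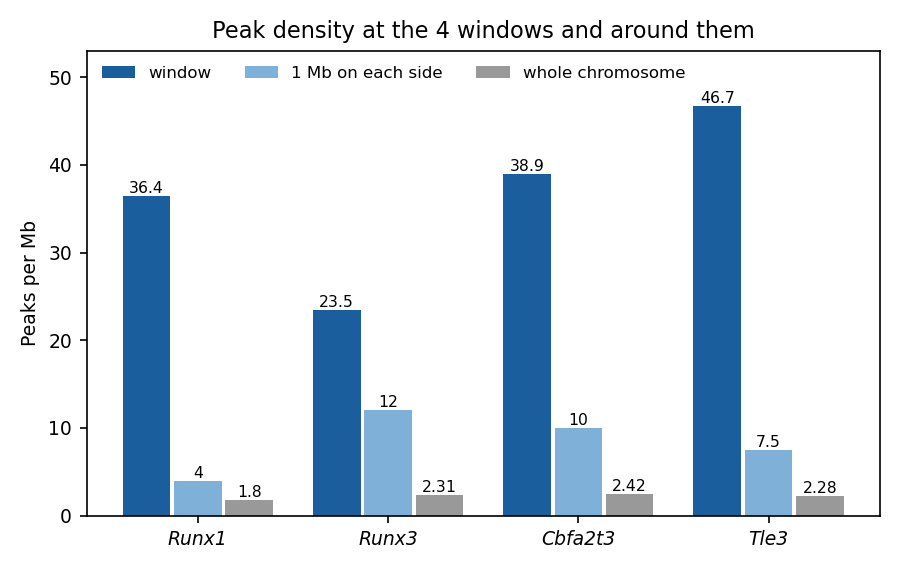
Peaks per Mb (vertical axis) in each window, in the 1 Mb on each side of it and over its whole chromosome between the first and last peak; bars are single values from 1 list, without error bars. Each window exceeds its flanks and its chromosome, least at Runx3 (23.5 against 12.0 and 2.31 per Mb). The windows were drawn with the peaks known, so this order is not a ranking of the genes.

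Windows of the same length laid end to end along each chromosome gave the background for these counts. On chromosome 16, 0 of 286 windows of 330 kb (0%) held 12 or more peaks. The fullest held 11 and overlapped the Runx1 window. On chromosome 8, 0 of 701 windows of 180 kb (0%) held 7 or more, and the fullest 2, with 6 each, did not overlap Cbfa2t3. That 0 depended on where the windows began, as the smaller steps below show. On chromosome 9, 2 of 774 windows of 150 kb (0.258%) held 7 or more, and the fullest held 8, away from Tle3. On chromosome 4, 10 of 894 windows of 170 kb (1.12%) held 4 or more, with up to 6 peaks. At least 201 of the windows on each chromosome were empty, and the median was 0 throughout.

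When the windows were moved in steps of 10 kb, only 8 of 9412 positions on chromosome 16 reached 12 peaks, and all 8 overlapped the Runx1 window. No position there held more. On the other chromosomes some positions away from the locus reached as many or more: the highest counts were 8 on chromosome 8, 9 on chromosome 9 and 7 on chromosome 4. Of the 12 positions with 8 peaks on chromosome 8, 2 overlapped Cbfa2t3. The position with 9 on chromosome 9 and the 8 positions with 7 on chromosome 4 did not overlap Tle3 or Runx3.

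**Figure D2:**
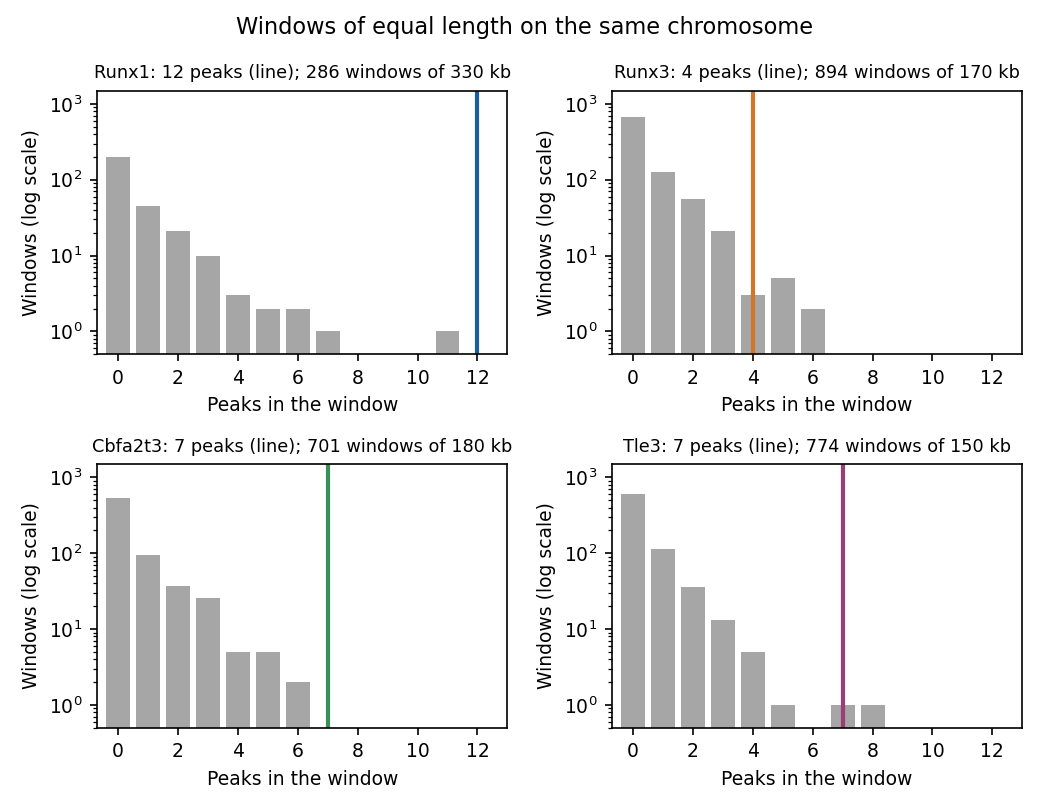
Number of windows (vertical, log scale) by peaks held (horizontal) for windows of the locus length laid along the same chromosome, with the locus count as a coloured line. Most windows are empty. The lines for Runx1 (12) and Cbfa2t3 (7) lie to the right of every bar, and those for Runx3 (4) and Tle3 (7) do not. With windows moved in steps of 10 kb, some positions away from Cbfa2t3 also held 7 or more.

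At Runx1 the 12 peaks spread over 247 kb, and their scores ran from 52.70 to 265.57. The score used here is that of the authors' peak caller. It grows with the evidence for a peak, starts at 50 in this list and has a median of 68.8. The strongest Runx1 peak, chr16:92620897-92621899, scored 265.57 and ranked 4 of the 170 on its chromosome. The next peak along, chr16:92653818-92654515, scored 247.91 (rank 6). Farther along, chr16:92825195-92826820 scored 253.80 (rank 5) and was 1626 bp wide, wider than 99.1% of all peaks. Runx1 thus held ranks 4, 5 and 6 of chromosome 16.

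The other 9 peaks included 3 close to the minimum score. They were chr16:92673724-92674220 with 52.70, chr16:92678513-92679009 with 53.93 and chr16:92697390-92697971 with 55.74. Scores then were 79.66 at chr16:92715622-92716290 and 111.33 at chr16:92764918-92765527, on either side of the longest interval without a peak in the window, 48.6 kb. A close pair followed at chr16:92800954-92801451 and chr16:92801705-92802465, with scores of 119.07 and 85.41 and only 253 bp between them. The peak at chr16:92822179-92822786 scored 118.29 and lay 2.41 kb from the wide peak. The last, chr16:92867384-92868162, scored 73.77.

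The nearest peaks outside the Runx1 window were 192 kb before the first (score 61.0) and 856 kb after the last (score 68.4). In the RefSeq gene order the protein-coding neighbours of Runx1 are Clic6 and Setd4.

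Runx3 differed in arrangement: of its 4 peaks, 2 lay toward each end of the window, with nothing between. The first 2 were 14.9 kb apart, and the last 2 lay 30.4 and 27.6 kb before the window's end. The first, chr4:134625393-134626171, was the strongest of the locus at 228.70, rank 12 of 351 on chromosome 4. It lay 5.78 kb inside the window's start. The second, chr4:134641046-134641653, scored 51.13, higher than 3.58% of the list. An interval of 117 kb without a peak followed, from 134641654 to 134759135, or 69.1% of the window. The last 2, chr4:134759136-134759971 and chr4:134761947-134762755, scored 86.65 and 87.28 and were 1.98 kb apart.

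The count at Runx3 depended on the window's edges. Drawn in by 25 kb on each side, the window kept 2 peaks, and widened by 50 kb it held 5. The next peak outside, chr4:134828191-134829347, scored 157 at 38.8 kb beyond the end, and the peak before the window lay 138 kb from the first. The protein-coding neighbours in the RefSeq order are Syf2 and Clic4, and which gene the outer peaks lie in was not examined.

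**Figure D3:**
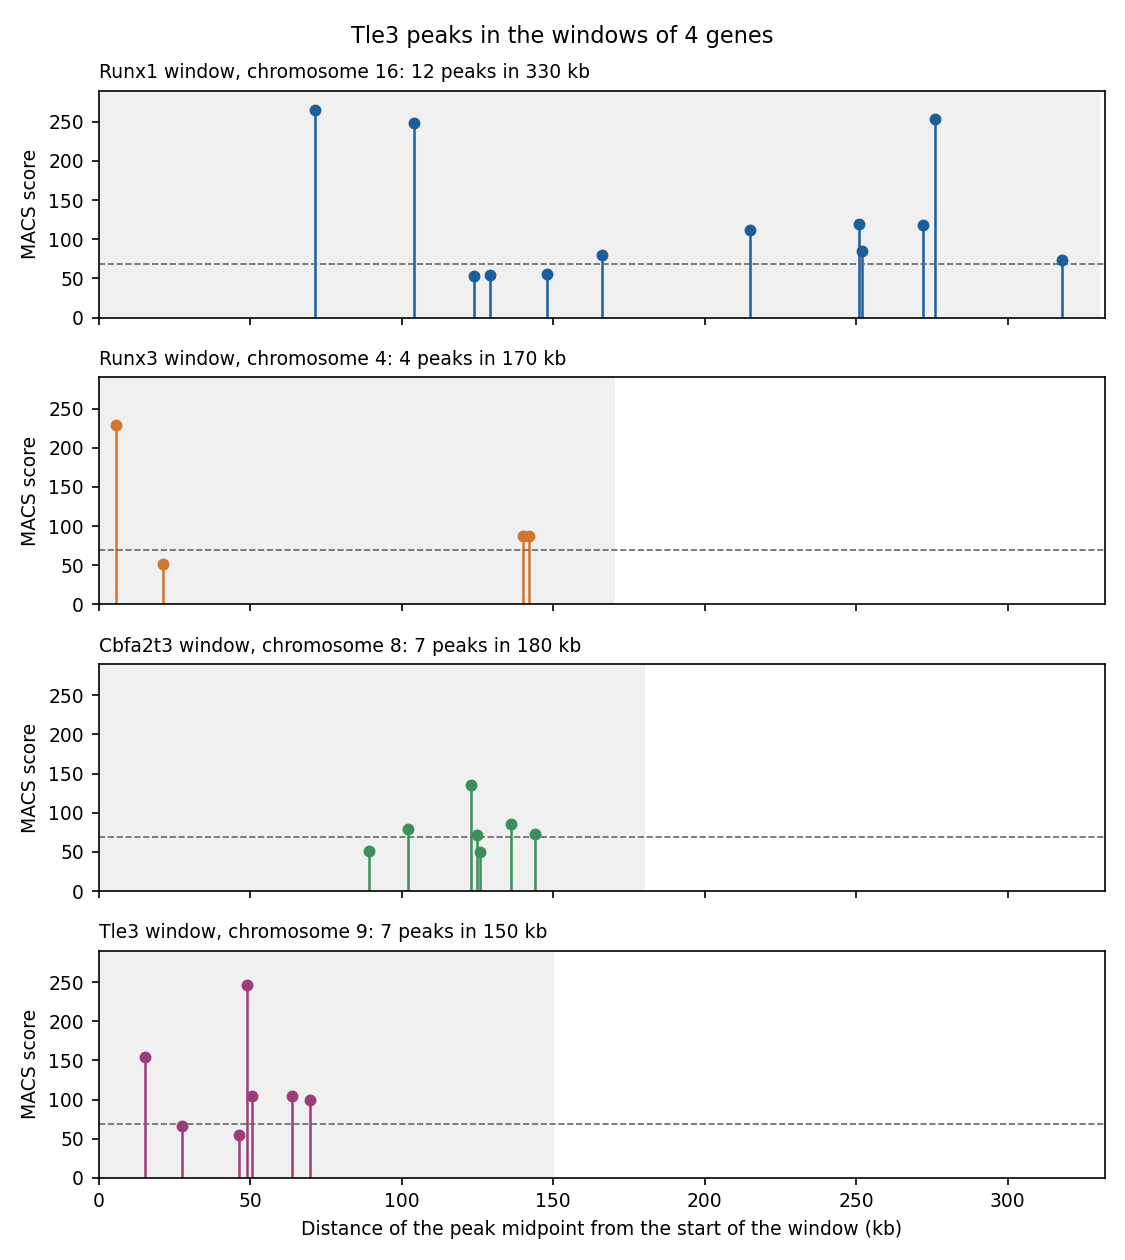
Score of each peak (vertical axis) by the distance of its midpoint from the window's start in kb (horizontal axis), with the window shaded and the list's median score of 68.8 dashed. Runx1 has scores from 52.70 to 265.57, Runx3 has a 117 kb interval without a peak, and Cbfa2t3 and Tle3 have clusters of 56.0 and 55.1 kb.

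At Cbfa2t3 all 7 peaks fell in 56.0 kb and 1 of them scored over 100. That peak, chr8:125222769-125223685, scored 136.01, was 917 bp wide and ranked 31 of 305 on chromosome 8. It opened a run of 5 peaks with gaps of 835 bp, 1.08 kb, 8.85 kb and 7.85 kb. The others of the run were chr8:125224521-125225153 with a score of 71.64, chr8:125226239-125226712 with 50, chr8:125235558-125236315 with 85.20 and chr8:125244170-125244821 with 72.90. The score of 50 is the minimum of the list. Before the run lay chr8:125188851-125189621 with 51.55 and chr8:125202122-125202779 with 79.68, the latter 20.0 kb from the strongest peak.

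Cbfa2t3 was the locus with many peaks of ordinary score. Its median score was 72.9, against 72.0 on chromosome 8. A stronger peak than most of them, with a score of 134, lay 8.19 kb before the window's start, at chr8:125091340-125092278, and was not counted. After the last peak the next lay 149 kb on. Pabpn1l and Acsf3 are the protein-coding neighbours in the RefSeq order.

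At Tle3 the peaks also fell in a short stretch, 55.1 kb, but with higher scores. The strongest, chr9:61218130-61219710, scored 246.16, rank 7 of 265 on chromosome 9, and was 1581 bp wide. Only 237 bp separated it from chr9:61219948-61221061, which scored 104.12 and was 1114 bp wide. On its other side, 1.63 kb away, chr9:61215980-61216503 scored 55.23. These 3 peaks formed the core of the locus, and 2 of them were among the 4 member peaks wider than 1000 bp.

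Further peaks stood on both sides of that core. Downstream in coordinates, chr9:61233325-61234029 scored 104.36 and chr9:61239182-61239992 scored 99.67. Before it, chr9:61184861-61185634 scored 154.51 (rank 27) and chr9:61197205-61197968 scored 65.82. The last 80.4 kb of the window held no peak midpoint. The nearest peaks outside were 280 kb before and 274 kb after, so the cluster stood alone over more than its own length. The protein-coding neighbours Uaca and Rplp1 complete the RefSeq order.

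Spacing within the loci was short beside the chromosomes. This follows largely from the counts, because 4 to 12 peaks in windows of 150 to 330 kb leave little room for long intervals. The medians and the share with a close neighbour are thus not a trait separate from the number of peaks. The median distance between consecutive peaks, edge to edge, was 19.2 kb over 11 intervals at Runx1, 8.35 kb over 6 at Cbfa2t3, 8.36 kb over 6 at Tle3 and 14.9 kb over 3 at Runx3. The medians of the chromosomes were 141, 90.9, 134 and 106 kb in the same order. Intervals over 10 kb numbered 8 of 11 at Runx1, 2 of 3 at Runx3, 2 of 6 at Cbfa2t3 and 3 of 6 at Tle3. Over all 4 loci, 18 of 30 peaks had another peak within 10 kb, against 22.2% of the list. By locus these were 6 at Runx1, 2 at Runx3, 5 at Cbfa2t3 and 5 at Tle3.

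**Figure D4:**
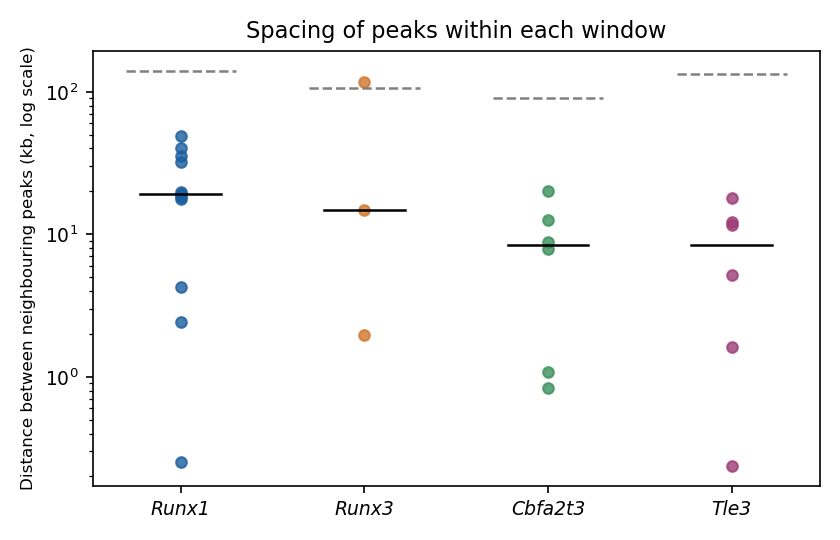
Distance between neighbouring peaks in kb (vertical, log scale) for each locus; points are single intervals, black bars the locus medians and dashed grey bars the chromosome medians. The 117 kb interval of Runx3 is the single point above its chromosome's median.

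The scores and widths of the members varied between loci. The median score of the 30 peaks was 86.0 with quartiles of 67.3 and 119, against 68.8, 56.7 and 99.2 in the list. Scores of 100 or more were found for 12 of 30, against 24.5% of the list: 6 of 12 at Runx1, 4 of 7 at Tle3, 1 of 7 at Cbfa2t3 and 1 of 4 at Runx3. The median was 98.4 at Runx1 (chromosome 16, 69.1), 87.0 at Runx3 (chromosome 4, 65.0) and 104 at Tle3 (chromosome 9, 64.9). At Cbfa2t3 it was 72.9 (chromosome 8, 72.0), and the Runx3 median rests on 4 peaks. None of the members was the strongest peak of its chromosome, where scores reached 441, 393, 617 and 460 on chromosomes 16, 4, 8 and 9.

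Peaks wider than 1000 bp numbered 4 of 30, against 11.1% of the list, with 2 each at Runx1 and Tle3. The median width of all 30 was 732 bp, against 657 bp in the list. The peaks covered 4.18% of the Tle3 window, 2.70% of the Cbfa2t3 window, 2.68% of the Runx1 window and 1.78% of the Runx3 window. All peaks of a chromosome covered from 0.128% to 0.175% of the 4 chromosomes, between first and last peak. A high score did not require great width: the Runx1 peak scoring 247.91 was 698 bp wide, and the Tle3 peak of 1114 bp scored 104.12.

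**Figure D5:**
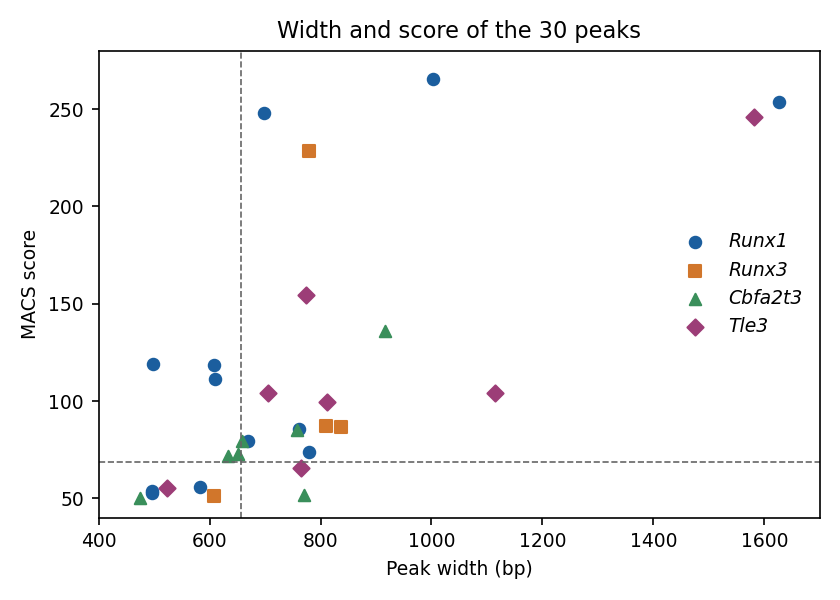
Score (vertical axis) against width in bp (horizontal axis) of the 30 member peaks, by locus, with the list medians of 657 bp and 68.8 dashed. The peaks above 200 belong to Runx1 (3), Tle3 (1) and Runx3 (1), and all Cbfa2t3 peaks lie at or under 136.01.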

How the data were processed

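The alignment program Bowtie2, the peak caller MACS 1.4 and the build mm9 are named per the submitters' processing notes, without parameters or read filters. The authors deposited 1 peak list in BED layout, with a score per peak, which by the convention of MACS 1.4 is log10 of the peak's p-value with the sign reversed and scaled by 10. The score is no read count. The other deposited values used, start and end, gave the widths. Starts were converted to positions counted from 1. Members and lists were chosen with earlier results of these data known. The windows came from the rule that defines the loci, and every peak in them is named. Chromosome density was peaks divided by the distance from first to last peak. Windows of equal length began at the first peak. The sliding windows, the 1 Mb flanks, the motifs other than TGTGGT and the search for shared bases were added after the data were seen. Assembly gaps were not removed. RefSeq sequences and gene order (GRCm38.p6) were used without converting positions. Protein sequences were not analysed here. The counting was checked on simulated lists. Python 3.11.15, pandas 2.3.3, numpy 2.4.6, SciPy 1.17.1 and matplotlib 3.10.9 were used.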

Additional observations from a re-analysis of the deposited data

How the results depend on the processing

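All 4 windows stayed denser than the sequence they were compared with in 28 of 28 alternative ratios. These alternatives reuse the same peaks in windows chosen with those peaks known, so the tally is no independent check. Of 48 alternative values, 37 stayed within 1.5 times the count or within the 95% exact interval of the ratio. At a score of at least 100 the counts were 6 at Runx1, 1 at Runx3, 1 at Cbfa2t3 and 4 at Tle3, and the ratio to the chromosome was 37.4 at Runx1 and 48.9 at Tle3. Widening the window by 50 kb on each side lowered the Tle3 ratio from 20.4 to 12.3, and peaks scoring 100 or more gave a Cbfa2t3 ratio of 8.49 against 16.1. Both values still lay within the interval of their ratio. Narrowing the window by 25 kb on each side left 2 peaks at Runx3. Against the 1 Mb on each side, an alternative added after the data were seen, the ratios were 9.09 at Runx1, 1.96 at Runx3, 3.89 at Cbfa2t3 and 6.22 at Tle3. The intervals cover counting error only, and the windows were drawn with the peaks known. They take clustered peaks as independent and are wide, since each rests on 4 to 12 peaks. The number of values inside them is therefore no measure of stability. No paired analysis was possible because each antibody had a single library. Without read totals, how many weaker sites fell below the score of 50 at these loci is unknown.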
